A study of Homo sapiens with 9 samples.

Results

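The genes described here encode the nuclear share of the oxidative phosphorylation machinery, followed across 9 mRNA libraries of SW1353 cells, a human chondrosarcoma line widely used in place of chondrocytes. A gene was a member when its symbol was an NDUFA, NDUFB, NDUFC, NDUFS or NDUFV stem with a number, SDHA, SDHB, SDHC or SDHD, a UQCR symbol, a COX symbol numbered 4 to 8 and followed by A, B, C or a digit, an ATP5F, ATP5M or ATP5P symbol, CYC1 or CYCS. The rule used symbols alone and gave 87 of 19389 rows in the deposited table, where a row stands for a gene and 32 rows have a repeated symbol. Of these, 85 were subunit genes and 2 were read-through transcripts, ATP5MF-PTCD1 and NDUFC2-KCTD14, which share sequence with ATP5MF and NDUFC2 and were kept apart. Complex I had 36 members, complex II 4, complex III 10, complex IV 17 and complex V 17, and CYCS, cytochrome c, stood alone. NDUFA4 and its paralog NDUFA4L2 were counted with complex IV, where NDUFA4 is now placed. The symbol rule left out COX4I1, COX4I2, NDUFAB1 and ATP5IF1.

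There were 3 groups of 3 libraries, all from the same cell line grown in the same serum-containing medium. The first group was pretreated for 2 h with PBSL, which comes from the larvae of Protaetia brevitarsis seulensis, a beetle. It then received 20 ng/mL of the inflammatory cytokine interleukin-1β (IL-1β) over 20 h. The second group had the same IL-1β without PBSL, and the third was untreated. No group had PBSL alone, and the labels list several PBSL concentrations without saying which was sequenced. Nor do they say whether the libraries of a group came from separate cultures, so p-values here reflect the spread of these libraries alone, and that spread may be technical.

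Oxidative phosphorylation passes electrons from NADH through complex I, or from succinate through complex II, to ubiquinone, and on through complex III, cytochrome c and complex IV to oxygen. Complexes I, III and IV pump protons, and complex V, the ATP synthase, uses the gradient to make ATP. The nuclear and mitochondrial genomes share the coding of complexes I, III, IV and V, while complex II is nuclear only. The mitochondrially encoded subunits were not analysed here. Many of the nuclear genes are known targets of NRF1, of the ETS factor GABP and of YY1, and chondrocytes are known for making much of their ATP by glycolysis, with mitochondrial respiration known to be sensitive to IL-1β.

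Promoters of ATP5F1C, SDHD and SDHB are shown first, as examples that each hold 1 or more of the motifs marked below, which most members' promoters need not do. They are from RefSeq on GRCh38.p14, each 300 bases long and ending 50 bases past the start that RefSeq gives. That start is not the GENCODE 29 gene start printed further on. Capitals mark 3 motifs on either strand, the NRF1 core CGCATGCG, the ETS core CCGGAAG and the YY1 core AAGATGGCG, none of which overlap here. ATP5F1C, the γ subunit of the ATP synthase, lies on the plus strand at chr10:7787927-7788226 for the stretch shown. SDHD, a membrane anchor of complex II, is shown for chr11:112086623-112086922 on the plus strand. SDHB, the iron-sulfur subunit of complex II, is shown for chr1:17053983-17054282 on the minus strand.
ATP5F1C: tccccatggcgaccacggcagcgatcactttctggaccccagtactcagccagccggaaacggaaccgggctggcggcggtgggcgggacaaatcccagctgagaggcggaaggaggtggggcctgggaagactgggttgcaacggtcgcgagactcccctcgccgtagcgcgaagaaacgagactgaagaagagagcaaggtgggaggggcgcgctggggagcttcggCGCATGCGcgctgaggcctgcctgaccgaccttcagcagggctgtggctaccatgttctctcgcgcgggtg
SDHD: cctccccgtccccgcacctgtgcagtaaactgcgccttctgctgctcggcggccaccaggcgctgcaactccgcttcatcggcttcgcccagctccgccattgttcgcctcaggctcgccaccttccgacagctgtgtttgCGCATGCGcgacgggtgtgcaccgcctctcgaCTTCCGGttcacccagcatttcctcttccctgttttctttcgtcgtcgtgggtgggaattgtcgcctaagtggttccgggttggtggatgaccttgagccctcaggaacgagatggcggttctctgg
SDHB: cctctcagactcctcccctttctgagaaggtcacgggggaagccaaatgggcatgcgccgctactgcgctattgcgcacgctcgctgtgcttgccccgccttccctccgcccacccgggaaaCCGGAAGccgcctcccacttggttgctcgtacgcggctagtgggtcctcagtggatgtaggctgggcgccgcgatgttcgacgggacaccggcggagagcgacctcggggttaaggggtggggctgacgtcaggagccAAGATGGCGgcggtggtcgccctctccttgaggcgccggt
Of the 85 subunit genes, 70 had a promoter in the RefSeq table. The NRF1 core lay in 10 of these (14.3%), against 598 of 27305 promoters in the whole table (2.19%). For the ETS core the share was 19 of 70 (27.1%), against 10.7% of all promoters. The YY1 core lay in 8 of 70 (11.4%), against 1.85%. Each motif was thus at a higher share in the members' promoters than in the table, as a description with no test. A match is not a measured binding site.

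**Figure D1:**
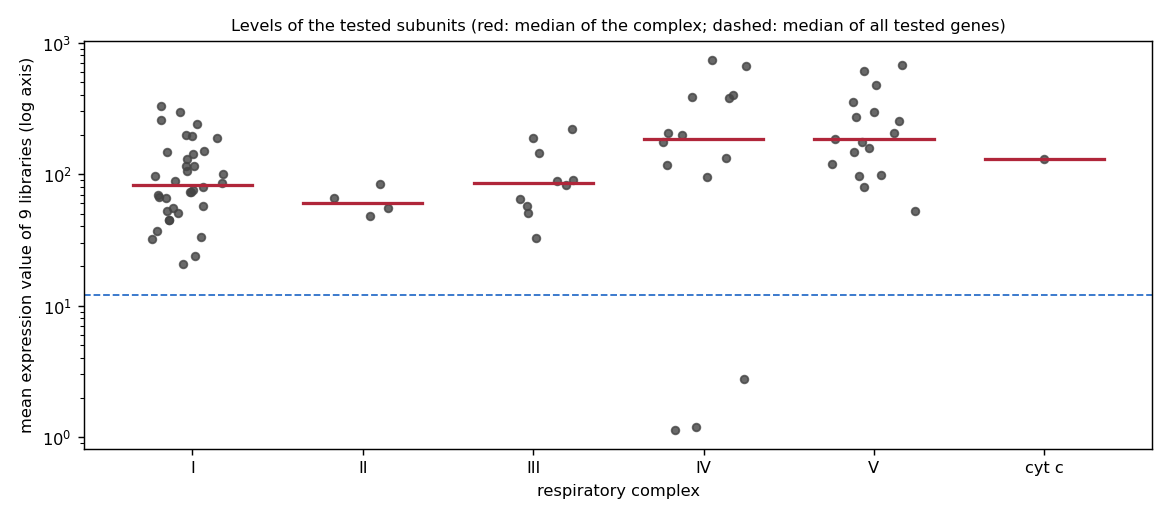
Mean deposited expression value over 9 libraries (log axis) of each tested subunit, by complex, with the median of the complex in red and that of all tested genes dashed at 12.1. The medians of complexes IV and V, both at 186, lie above those of complexes I, II and III, which run from 60.2 to 85.6.

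The deposited values are normalized and scale with transcript length, so levels of different genes can be set side by side per length. Testing required a value of 1 or more in 3 or more libraries, and 82 of the 85 subunit genes and 11924 of all genes met this. The members that did not were tissue-restricted paralogs of complex IV. COX6A2, the heart and muscle form, and COX8C, a testis form, were listed at 0 in all 9 libraries, and COX7A1, the other muscle form, lay between 0.062 and 0.52. The median tested subunit stood at 102.8, against 12.1 for the median tested gene.

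The level plot shows how the complexes differed in this respect. In complex IV COX8A led with a mean of 739, and in complex V ATP5MF with 675. In complex III UQCRQ, a small accessory subunit, was the most abundant at 220, and in complex I NDUFB1 at 332. Complex II ran in a narrow band, with SDHD highest at 84.6 and SDHB lowest at 47.7. The lowest tested members elsewhere were NDUFV3 at 20.6 in complex I, UQCRHL at 32.5 in complex III, ATP5F1E at 52.7 in complex V and NDUFA4L2 at 1.13 in complex IV. The complex IV genes NDUFA4L2, COX6B2 and COX7B2 were the 3 members under 5.

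The first question was what IL-1β did to these genes. Under IL-1β 33 of 82 tested subunits fell and none rose, and the changes were small, at most 0.43 on the log2 scale (limma, Benjamini-Hochberg adjusted p under 0.05 over all 11924 genes). Those that fell made up 40.2% of the members, where 16.0% of all tested genes fell and 16.2% rose. At an unadjusted p under 0.05, 46 subunits were lower and 0 were higher, and the share of all tested genes at that threshold is not given here. The estimate was below 0 for 77 of 82 subunits, and the median log2 fold change was -0.16, against -0.0049 over all tested genes. All 3 IL-1β libraries lay below all 3 untreated libraries for 50 subunits (61.0%), as they did for 27.1% of all tested genes. The members' median level of 102.8 lies far above the 12.1 of all tested genes, and the part of abundance in these counts was not tested.

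Every complex had members that fell. In complex V 10 of 17 did, with a median log2 fold change of -0.20, and in complex II 4 of 4 did, with a median of -0.21. Complex III had 4 of 10 (median -0.17), complex IV 5 of 14 (median -0.15) and complex I 10 of 36 (median -0.14). Within complex V the F1 head had 4 of 5 that fell, the c ring 2 of 3, the peripheral stalk 2 of 4 and the small membrane subunits 2 of 5. Within complex I 3 of 7 core and 7 of 29 accessory subunits fell. CYCS was not called, with a log2 fold change of 0.02. No test of the difference between complexes was made.

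The count depends on single libraries. It was 21 without IL-1β 2, 19 without IL-1β 3, 21 without untreated 1 and 18 without untreated 3, while 15 of the 33 were called lower in all 17 alternatives. Those 15 were NDUFA1, NDUFA12, NDUFC1, NDUFV1, SDHD, UQCR10, UQCRHL, COX6B1, COX7C, NDUFA4, ATP5F1A, ATP5F1C, ATP5MC3, ATP5PB and ATP5PO. The trend of each library's deviations from the gene means on transcript length and GC content was removed in another fit, and 57 subunits then fell. In a fit of the IL-1β and untreated libraries alone 51 fell and 1, NDUFV2, rose. The shares of all tested genes called in these fits are not given here, and the 16.0% belongs to the reported fit alone.

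**Figure D2:**
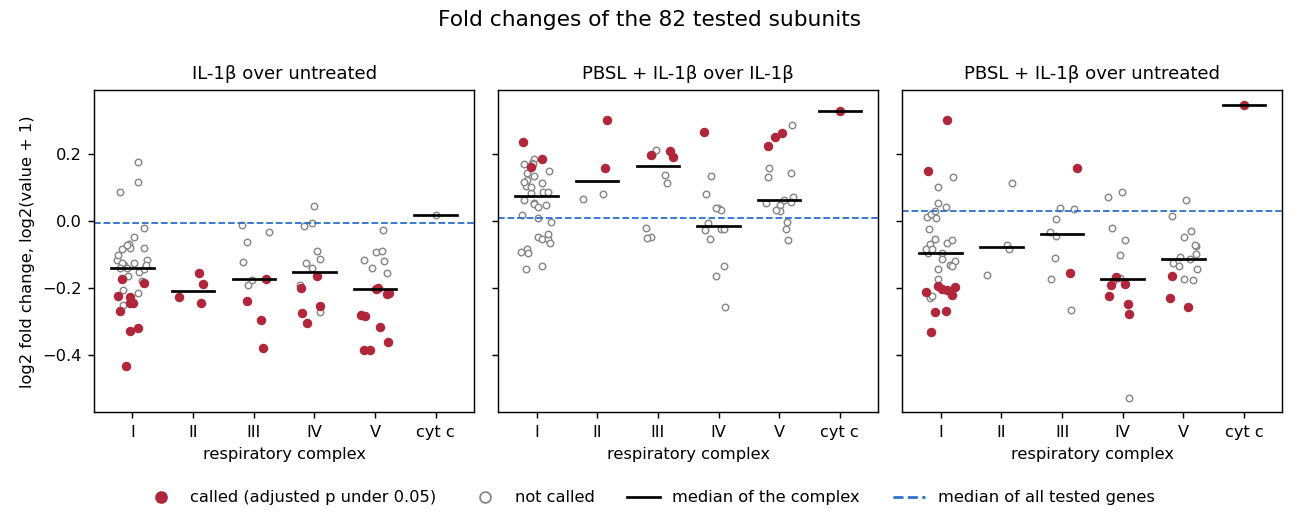
Log2 fold change of each of the 82 tested subunits on the log2(value + 1) scale, by complex, in the 3 comparisons. Filled points passed the test, black lines are complex medians and the dashed line is the median of all tested genes. In IL-1β over untreated the 33 filled points all lie below 0, and in PBSL + IL-1β over IL-1β the 13 filled points all lie above 0.

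The second comparison set PBSL + IL-1β against IL-1β alone. Of 82 subunits 13 rose and none fell. They were CYCS, SDHB, COX5A, ATP5MC1, ATP5PB, NDUFS3, ATP5MC3, UQCRFS1, UQCRHL, CYC1, NDUFV2, NDUFA12 and SDHD, in order of size, from 0.33 to 0.16 on the log2 scale. They made up 15.9% of the members, close to the 11.5% of all tested genes that rose. By contrast 0 of 82 fell, where 11.0% of all tested genes did. At an unadjusted p under 0.05, 1 subunit was lower and 26 were higher. The shares of all tested genes at that threshold are not given here, so the 26 cannot be read as an excess. The median log2 fold change was 0.064 over the members and 0.0079 over all tested genes. All 3 PBSL + IL-1β libraries lay above all 3 IL-1β libraries for 24 subunits (29.3%), against 21.7% of all tested genes. This comparison shares its IL-1β libraries with the first, so a gene low in those libraries by chance would stand out in both.

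By complex, 2 of 4 members of complex II rose (median 0.12), 3 of 10 of complex III (median 0.17), 3 of 17 of complex V (median 0.062), 3 of 36 of complex I (median 0.074) and 1 of 14 of complex IV (median -0.014). The calls are sensitive to single libraries. The number that rose was 4 without IL-1β 1, 4 without IL-1β 2, 3 without IL-1β 3, 4 without PBSL + IL-1β 2 and 8 without PBSL + IL-1β 3. Without PBSL + IL-1β 1 it was 20, and 1, COX7B2, then fell. In all 17 alternatives CYCS, SDHB and ATP5MC3 were called. The number was also 6 in a fit of these groups alone, 8 with no filter and 8 with median-ratio scaling. It was 7 with robust variance estimation and no variance trend.

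Against untreated libraries, the PBSL + IL-1β libraries held 19 subunits that fell and 4 that rose. Among those that rose were CYCS (0.35 on the log2 scale), NDUFV2 (0.30) and CYC1 (0.16). The 19 are 23.2% of the members, near the 19.3% of all tested genes that fell, and the 4 are 4.88%, against 22.3% that rose. The median log2 fold change was -0.11, against 0.031 over all tested genes. All 3 PBSL + IL-1β libraries lay below all 3 untreated libraries for 24 subunits (29.3%), against 22.1% of all tested genes.

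In this comparison complex IV had 6 of 14 that fell (median -0.17), and complex I had 9 of 36 that fell and 2 that rose (median -0.094). Complex V had 3 of 17 that fell (median -0.11), complex III 1 of 10 that fell and 1 that rose (median -0.038), and complex II had none of either (median -0.078). At an unadjusted p under 0.05, 1 complex II gene was lower and 0 were higher. Without untreated 3 only 7 subunits fell and 2 rose, without untreated 1 there were 13 that fell and 2 that rose, and the number that rose was also 2 without PBSL + IL-1β 2 and without IL-1β 3. With the length and GC trend removed 45 fell, and in a fit of these groups alone 12 fell and 2 rose, as 2 did with median-ratio scaling. The shares of all tested genes called in these fits are not given here.

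**Figure D3:**
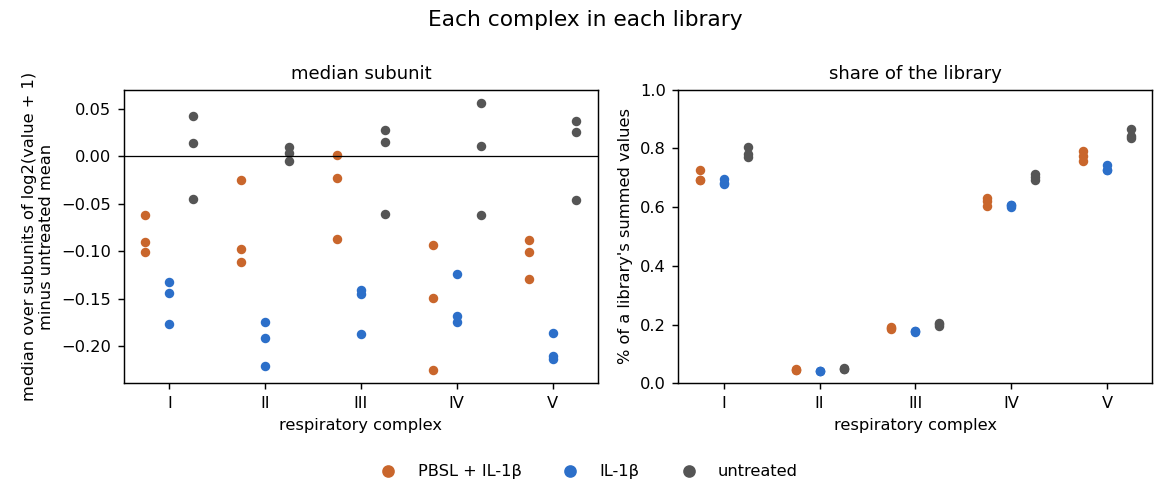
Left, the median over a complex's tested subunits of log2(value + 1) minus the untreated mean, and right, the percent of a library's summed values held by that complex. Each point is a library. The IL-1β libraries lie below the untreated ones in every complex on both panels, and the PBSL + IL-1β libraries overlap the IL-1β ones in complex IV on both panels and in complex I on the right.

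Summed over the 82 tested subunits, the members took 2.33% to 2.41% of the values of a PBSL + IL-1β library, 2.24% to 2.29% of an IL-1β library and 2.57% to 2.65% of an untreated library. The 3 groups did not overlap in this share. These are shares of a library, so less of these transcripts in each cell and more of other transcripts cannot be told apart. Complex V took 0.758% to 0.791% in PBSL + IL-1β, 0.726% to 0.745% in IL-1β and 0.836% to 0.865% in untreated libraries. Complex IV took 0.603% to 0.632% in PBSL + IL-1β, 0.599% to 0.607% in IL-1β and 0.691% to 0.712% in untreated libraries, so that for this complex the groups with IL-1β overlapped. They overlapped for complex I as well, with 0.691% to 0.725% in PBSL + IL-1β, 0.677% to 0.696% in IL-1β and 0.771% to 0.803% in untreated libraries.

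Complex I takes electrons from NADH. NDUFA12, an accessory subunit of its matrix arm (chr12:94897055-95003770), had the largest fall of all members under IL-1β. Its values were 97.2, 102 and 106 in PBSL + IL-1β libraries, 94.6, 88.1 and 90.1 in IL-1β libraries, and 128, 122 and 119 in untreated libraries. The groups did not overlap. It fell under IL-1β by 0.43 on the log2 scale (SE 0.053, adjusted p = 6.54e-05) and rose with PBSL by 0.16 (adjusted p = 0.0481), a call held in only 4 of 17 alternatives, with adjusted p from 0.0174 to 0.172. In PBSL + IL-1β over untreated it fell by 0.27 (adjusted p = 0.00168).

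The core subunits of complex I bind the flavin and the iron-sulfur clusters. NDUFV1, which holds the flavin site, had 69.3, 76.0 and 65.6 in PBSL + IL-1β libraries, 68.9, 68.2 and 67.6 in IL-1β libraries, and 79.3, 78.1 and 85.6 in untreated libraries. Its value lay below every untreated library in every treated library, and it fell under IL-1β (-0.24, adjusted p = 0.00858) and in PBSL + IL-1β over untreated (-0.20, adjusted p = 0.0181). NDUFV1 kept the second call in 14 of 17 alternatives, with adjusted p up to 0.0808. NDUFV2 is its partner in the same module. It had 76.7, 86.1 and 90.6 in PBSL + IL-1β libraries, 74.0, 73.7 and 74.5 in IL-1β libraries, and 67.5, 69.9 and 67.1 in untreated libraries. It rose in PBSL + IL-1β over untreated (0.30, SE 0.060, adjusted p = 0.00183) in all 17 alternatives, and over IL-1β (0.18, adjusted p = 0.0464) in 3 of them, with adjusted p from 0.00259 to 0.128.

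NDUFS3, another core subunit, had 67.3, 74.4 and 70.3 in PBSL + IL-1β libraries, 60.6, 60.2 and 58.7 in IL-1β libraries, and 72.6, 64.0 and 74.0 in untreated libraries. The IL-1β libraries were the lowest, with a fall of 0.22 under IL-1β (adjusted p = 0.0159) and a rise of 0.24 with PBSL (adjusted p = 0.0205). NDUFS1, the largest iron-sulfur subunit, had 34.1, 33.4 and 38.8 in PBSL + IL-1β libraries, 31.1, 31.1 and 33.3 in IL-1β libraries, and 33.5, 32.5 and 30.7 in untreated libraries, and was called in no comparison. Among accessory subunits NDUFA3 was the largest change in PBSL + IL-1β over untreated, at -0.33 (adjusted p = 0.0254). Its groups overlapped, with 125, 132 and 143 in PBSL + IL-1β libraries, 147, 145 and 131 in IL-1β libraries, and 169, 140 and 199 in untreated libraries. NDUFB1, the most abundant complex I member, was not called, and its PBSL + IL-1β 3 value of 242 stood below 351 and 338 in the other libraries of that group. The NDUFA3 call held in 12 of 17 alternatives, with adjusted p up to 0.103. Those of NDUFS3 held in 14 under IL-1β and 13 with PBSL over IL-1β, with adjusted p up to 0.0705 and 0.0761.

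Complex II, succinate dehydrogenase, also belongs to the TCA cycle, and it is the complex in which all members fell under IL-1β. SDHA, the flavoprotein, had 53.4, 57.7 and 54.0 in PBSL + IL-1β libraries, 51.9, 51.7 and 52.3 in IL-1β libraries, and 56.7, 59.5 and 57.5 in untreated libraries. SDHB (chr1:17018722-17054170) had 48.6, 53.4 and 55.2 in PBSL + IL-1β libraries, 40.5, 43.0 and 43.5 in IL-1β libraries, and 48.7, 49.7 and 46.7 in untreated libraries. In both genes every IL-1β library lay below every library of the other groups. SDHC, an anchor subunit, had 65.2, 68.2 and 58.5 in PBSL + IL-1β libraries, 59.5, 62.8 and 60.6 in IL-1β libraries, and 70.9, 69.4 and 74.3 in untreated libraries. SDHD, the other anchor (chr11:112086773-112120013), had 86.0, 88.2 and 83.4 in PBSL + IL-1β libraries, 79.6, 75.6 and 75.4 in IL-1β libraries, and 91.3, 89.8 and 92.2 in untreated libraries. Its 3 groups were fully apart.

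The log2 fold changes under IL-1β were -0.15 for SDHA (adjusted p = 0.0308), -0.19 for SDHB (0.0289), -0.23 for SDHC (0.0129) and -0.24 for SDHD (0.00179). With PBSL, SDHB rose by 0.30 over IL-1β (SE 0.059, adjusted p = 0.00598) and SDHD by 0.16 (adjusted p = 0.0316). The SDHB rise held in all 17 alternatives. That of SDHD held in 8, with adjusted p from 0.029 to 0.354, and its fall under IL-1β held in all 17. The falls of SDHA, SDHB and SDHC under IL-1β held in 9, 12 and 14 alternatives, with adjusted p up to 0.0983, 0.125 and 0.0800. SDHA and SDHC were not called with PBSL, at 0.082 and 0.066. Against untreated libraries SDHC stood at -0.16 with PBSL (95% interval -0.29 to -0.029), with an adjusted p of 0.0503.

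Complex III passes electrons from ubiquinol to cytochrome c. UQCR10, a small subunit next to cytochrome c1, had 183, 192 and 191 in PBSL + IL-1β libraries, 171, 172 and 171 in IL-1β libraries, and 218, 202 and 209 in untreated libraries. The groups did not overlap, and it fell under IL-1β by 0.29 on the log2 scale (SE 0.047, adjusted p = 0.000471) in all 17 alternatives. UQCRFS1, the Rieske iron-sulfur protein, had 53.2, 55.3 and 51.9 in PBSL + IL-1β libraries, 45.7, 46.6 and 46.2 in IL-1β libraries, and 54.0, 49.8 and 52.5 in untreated libraries. The IL-1β libraries were the lowest, with a fall of 0.17 under IL-1β (adjusted p = 0.0204) and a rise of 0.21 with PBSL (adjusted p = 0.014). The fall held in 12 of 17 alternatives and the rise in 15, with adjusted p up to 0.0881 and 0.0580. UQCRB, a ubiquinone-binding subunit, had the largest fall of the complex under IL-1β, at -0.38 (adjusted p = 0.0308, called in 10 of 17 alternatives with adjusted p up to 0.0874). Its values were 57.7, 50.6 and 79.5 in PBSL + IL-1β libraries, 57.3, 55.2 and 57.9 in IL-1β libraries, and 74.6, 73.2 and 74.6 in untreated libraries. The PBSL + IL-1β 3 library stood at the level of the untreated ones and the rest of its group did not.

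UQCRH, the hinge protein, and UQCRHL, a near-identical copy, cannot be told apart with certainty where the counting could split reads between them. UQCRH had 84.9, 94.5 and 98.9 in PBSL + IL-1β libraries, 85.6, 81.9 and 74.8 in IL-1β libraries, and 93.1, 86.5 and 96.9 in untreated libraries, and was not called. UQCRHL had 31.2, 34.9 and 34.9 in PBSL + IL-1β libraries, 30.0, 28.4 and 29.3 in IL-1β libraries, and 35.8, 32.9 and 35.4 in untreated libraries. It was called lower under IL-1β (-0.24, adjusted p = 0.00938) and higher with PBSL (0.20, adjusted p = 0.0374), and the second call held in 7 of 17 alternatives, with adjusted p up to 0.133. UQCRQ, the most abundant complex III member, had 229, 209 and 189 in PBSL + IL-1β libraries, 221, 223 and 203 in IL-1β libraries, and 235, 216 and 256 in untreated libraries, and its groups overlapped.

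Cytochromes c1 and c carry the electrons onward from complex III. CYC1, cytochrome c1, had 95.6, 106 and 93.4 in PBSL + IL-1β libraries, 83.6, 87.3 and 86.7 in IL-1β libraries, and 88.7, 84.7 and 90.4 in untreated libraries. It was not called under IL-1β (-0.033) and rose with PBSL by 0.19 over IL-1β (adjusted p = 0.0311) and by 0.16 over untreated (adjusted p = 0.0406). The first call held in 9 of 17 alternatives, with adjusted p up to 0.116, and the second in 6, with adjusted p up to 0.130. CYCS, the soluble cytochrome c (chr7:25120091-25125361), had the largest rise of all members in both comparisons with PBSL. It had 138, 162 and 153 in PBSL + IL-1β libraries, 119, 122 and 118 in IL-1β libraries, and 126, 120 and 108 in untreated libraries. Every PBSL + IL-1β library lay above the other 6, at 0.33 over IL-1β (SE 0.068, adjusted p = 0.00775) and 0.35 over untreated (adjusted p = 0.00181), in all 17 alternatives. The GENCODE 29 annotation names 40 pseudogenes after CYCS, and how reads that match several copies were counted is not given in the sources used here.

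**Figure D4:**
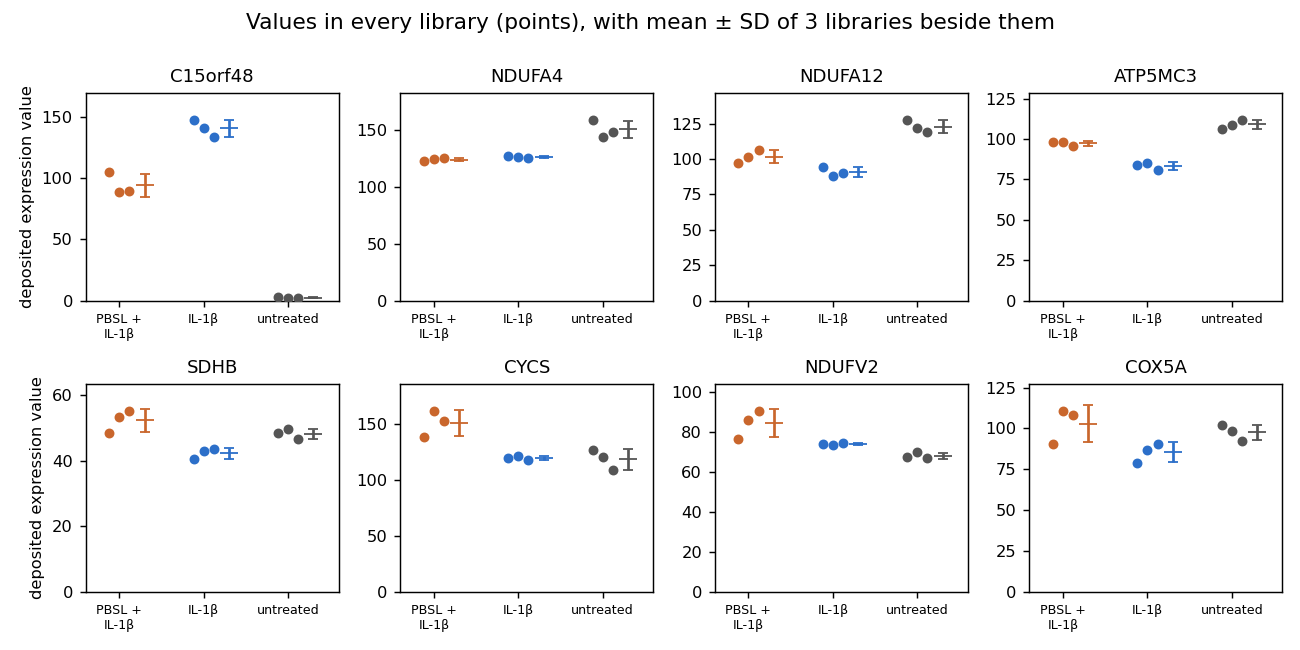
Deposited expression values in every library (points) with the mean ± SD of 3 libraries beside them, for C15orf48, which is not a member, and 7 members. Each axis starts at 0. NDUFA4 lies lower in both groups with IL-1β, SDHB is lowest in IL-1β and CYCS highest in PBSL + IL-1β.

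Complex IV reduces oxygen. Its small subunits occur as pairs or sets of paralogs, and in each set shown here the broadly expressed form had the higher level. COX6A1 had 415, 366 and 316 in PBSL + IL-1β libraries, 382, 381 and 369 in IL-1β libraries, and 390, 417 and 427 in untreated libraries, while COX6A2 was listed at 0. COX6B1 (chr19:35648223-35658861) had 371, 396 and 413 in PBSL + IL-1β libraries, 381, 342 and 352 in IL-1β libraries, and 440, 425 and 461 in untreated libraries. COX6B1 was lower in all treated libraries and fell under IL-1β by 0.30 (adjusted p = 0.00202) in all 17 alternatives. Its testis paralog COX6B2 lay between 0.961 and 1.45 in all 9 libraries.

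COX7A2 had 200, 188 and 199 in PBSL + IL-1β libraries, 197, 182 and 196 in IL-1β libraries, and 203, 191 and 218 in untreated libraries. COX7A2L, a relative that sits in respiratory supercomplexes, had 117, 118 and 114 in PBSL + IL-1β libraries, 110, 124 and 117 in IL-1β libraries, and 117, 119 and 118 in untreated libraries. Neither was called, and their groups overlapped in each comparison. COX7B had 677, 595 and 610 in PBSL + IL-1β libraries, 636, 650 and 627 in IL-1β libraries, and 720, 683 and 741 in untreated libraries. It fell by 0.16 under IL-1β (adjusted p = 0.0479) and by 0.19 in PBSL + IL-1β over untreated (adjusted p = 0.0208). The calls held in 7 and 13 of 17 alternatives, with adjusted p up to 0.155 and 0.0822. Its testis paralog COX7B2 had 3.58, 1.88 and 1.12 in PBSL + IL-1β libraries, 2.46, 3.25 and 2.24 in IL-1β libraries, and 2.95, 2.95 and 4.35 in untreated libraries, and was not called.

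COX8A, the most abundant member of all, had 777, 755 and 656 in PBSL + IL-1β libraries, 690, 746 and 689 in IL-1β libraries, and 813, 751 and 778 in untreated libraries. It was not called, at -0.14 under IL-1β (95% interval -0.29 to 0.0065). COX5A, a subunit on the matrix side of the complex, was the complex IV member that rose with PBSL over IL-1β, by 0.26 (adjusted p = 0.0353). It had 90.2, 111 and 108 in PBSL + IL-1β libraries, 78.8, 86.7 and 90.7 in IL-1β libraries, and 102, 98.2 and 92.5 in untreated libraries. The PBSL + IL-1β libraries overlapped both other groups, while all IL-1β libraries lay below all untreated ones. The rise with PBSL over IL-1β held in 7 of 17 alternatives with adjusted p from 0.00214 to 0.138. COX4I1, outside the symbol rule but the main form of its subunit, had 390, 384 and 334 in PBSL + IL-1β libraries, 385, 385 and 377 in IL-1β libraries, and 383, 363 and 417 in untreated libraries, and was called in no comparison.

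NDUFA4 is the complex IV member with a paralog that IL-1β changes strongly. C15orf48, also named COXFA4L3 or NMES1, encodes a protein known to replace NDUFA4 in complex IV in inflamed cells, and its transcript carries the hairpin of miR-147b, a microRNA known to lower NDUFA4. C15orf48 had 105, 88.3 and 89.1 in PBSL + IL-1β libraries, 147, 141 and 133 in IL-1β libraries, and 3.04, 2.00 and 2.07 in untreated libraries. It rose under IL-1β by 5.40 on the log2(value + 1) scale (SE 0.11, adjusted p = 6.93e-12) and fell with PBSL over IL-1β by 0.58 (adjusted p = 0.0049). In IL-1β libraries its level per length was above that of NDUFA4, and in PBSL + IL-1β libraries below it.

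NDUFA4 itself (chr7:10931951-10940256) had 122, 124 and 125 in PBSL + IL-1β libraries, 127, 126 and 125 in IL-1β libraries, and 159, 144 and 148 in untreated libraries. Every treated library lay below every untreated library. It fell under IL-1β by 0.25 (SE 0.048, adjusted p = 0.00171) and in PBSL + IL-1β over untreated by 0.28 (adjusted p = 0.000778), in all 17 alternatives of each. Over IL-1β alone PBSL left it at -0.024 (95% interval -0.13 to 0.081). NDUFA4L2, a paralog known as a hypoxia target, had 1.02, 0.745 and 1.10 in PBSL + IL-1β libraries, 1.27, 1.46 and 0.863 in IL-1β libraries, and 1.32, 0.733 and 1.63 in untreated libraries, and was not called.

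The microRNA and its match in NDUFA4 are shown because both lie in transcripts measured here. The mature miR-147b-3p from RefSeq has its seed, bases 2 to 8, in capitals, and its hairpin lies at chr15:45433050-45433129 on the plus strand (GRCh38.p14), in UTR exons of C15orf48. The NDUFA4 3′ UTR stretch is written with the seed match in capitals, at chr7:10933574-10933580 on the minus strand, position 501 of the 2130-nt transcript in GENCODE 29.
hsa-miR-147b-3p: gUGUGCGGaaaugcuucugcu
NDUFA4 site: agccacatCCGCACAattttcca
Searched over whole transcripts, 1 per gene and on the sense strand, the letters CCGCACA were in 2 members, NDUFA4 and NDUFA9, and in 1716 of 19669 coding transcripts (8.72%). NDUFA9 was not called under IL-1β, at 0.18. The microRNA was not measured in these mRNA libraries, so its part in the NDUFA4 level was not tested.

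Complex V makes ATP. In the F1 head, ATP5F1A, the α subunit, had 260, 255 and 267 in PBSL + IL-1β libraries, 251, 252 and 251 in IL-1β libraries, and 312, 289 and 316 in untreated libraries. ATP5F1B, the catalytic β subunit, had 478, 486 and 461 in PBSL + IL-1β libraries, 461, 458 and 459 in IL-1β libraries, and 496, 481 and 493 in untreated libraries. ATP5F1A fell under IL-1β by 0.28 (adjusted p = 0.000778) and ATP5F1B, its partner in the hexamer, was not called, at -0.093 (95% interval -0.19 to 0.0026). ATP5F1C, the γ subunit whose promoter is shown above, had 170, 168 and 164 in PBSL + IL-1β libraries, 160, 161 and 161 in IL-1β libraries, and 204, 194 and 203 in untreated libraries. It fell by 0.32 under IL-1β (SE 0.044, adjusted p = 0.000166) and by 0.25 in PBSL + IL-1β over untreated (adjusted p = 0.00071), each in all 17 alternatives. ATP5F1E, the ε subunit and the least abundant of the complex, had 48.3, 54.6 and 52.3 in PBSL + IL-1β libraries, 50.1, 49.2 and 48.1 in IL-1β libraries, and 56.8, 55.4 and 59.3 in untreated libraries, with a fall of 0.21 under IL-1β (adjusted p = 0.0114). That fall held in 15 of 17 alternatives, with adjusted p up to 0.0536.

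The c ring is made of identical mature proteins from 3 genes. ATP5MC3 (chr2:175176258-175184607) had 97.9, 98.3 and 95.7 in PBSL + IL-1β libraries, 84.1, 85.0 and 80.7 in IL-1β libraries, and 106, 109 and 112 in untreated libraries. Its groups were fully apart, and it fell under IL-1β by 0.39 (SE 0.046, adjusted p = 4.99e-05) and rose with PBSL over IL-1β by 0.22 (adjusted p = 0.0072), each in all 17 alternatives. ATP5MC1 had 159, 185 and 171 in PBSL + IL-1β libraries, 150, 136 and 141 in IL-1β libraries, and 172, 152 and 167 in untreated libraries. It fell under IL-1β by 0.20 (adjusted p = 0.0403, called in 10 of 17 alternatives) and rose with PBSL by 0.26 (adjusted p = 0.0182). The rise held in 14 of 17 alternatives, with adjusted p up to 0.0786. ATP5MC2, the most abundant of the 3, had 295, 291 and 303 in PBSL + IL-1β libraries, 306, 276 and 273 in IL-1β libraries, and 315, 300 and 337 in untreated libraries, and was not called, at -0.15 and 0.058.

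In the peripheral stalk, which holds the head still, ATP5PB had 110, 118 and 139 in PBSL + IL-1β libraries, 107, 101 and 99.1 in IL-1β libraries, and 139, 128 and 135 in untreated libraries. It fell under IL-1β by 0.39 (adjusted p = 0.00195) and rose with PBSL by 0.25 (adjusted p = 0.0333), and the rise held in 9 of 17 alternatives with adjusted p from 0.005 to 0.111. Of the small membrane subunits, ATP5MF, which takes part in dimer formation, had 652, 644 and 690 in PBSL + IL-1β libraries, 645, 654 and 642 in IL-1β libraries, and 683, 710 and 750 in untreated libraries. It was not called, although its IL-1β libraries lay below all untreated ones. Its read-through transcript ATP5MF-PTCD1 had 2.61 to 4.01 over the 9 libraries, and NDUFC2-KCTD14 had 48.7 to 94.1, and neither was called.

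**Figure D5:**
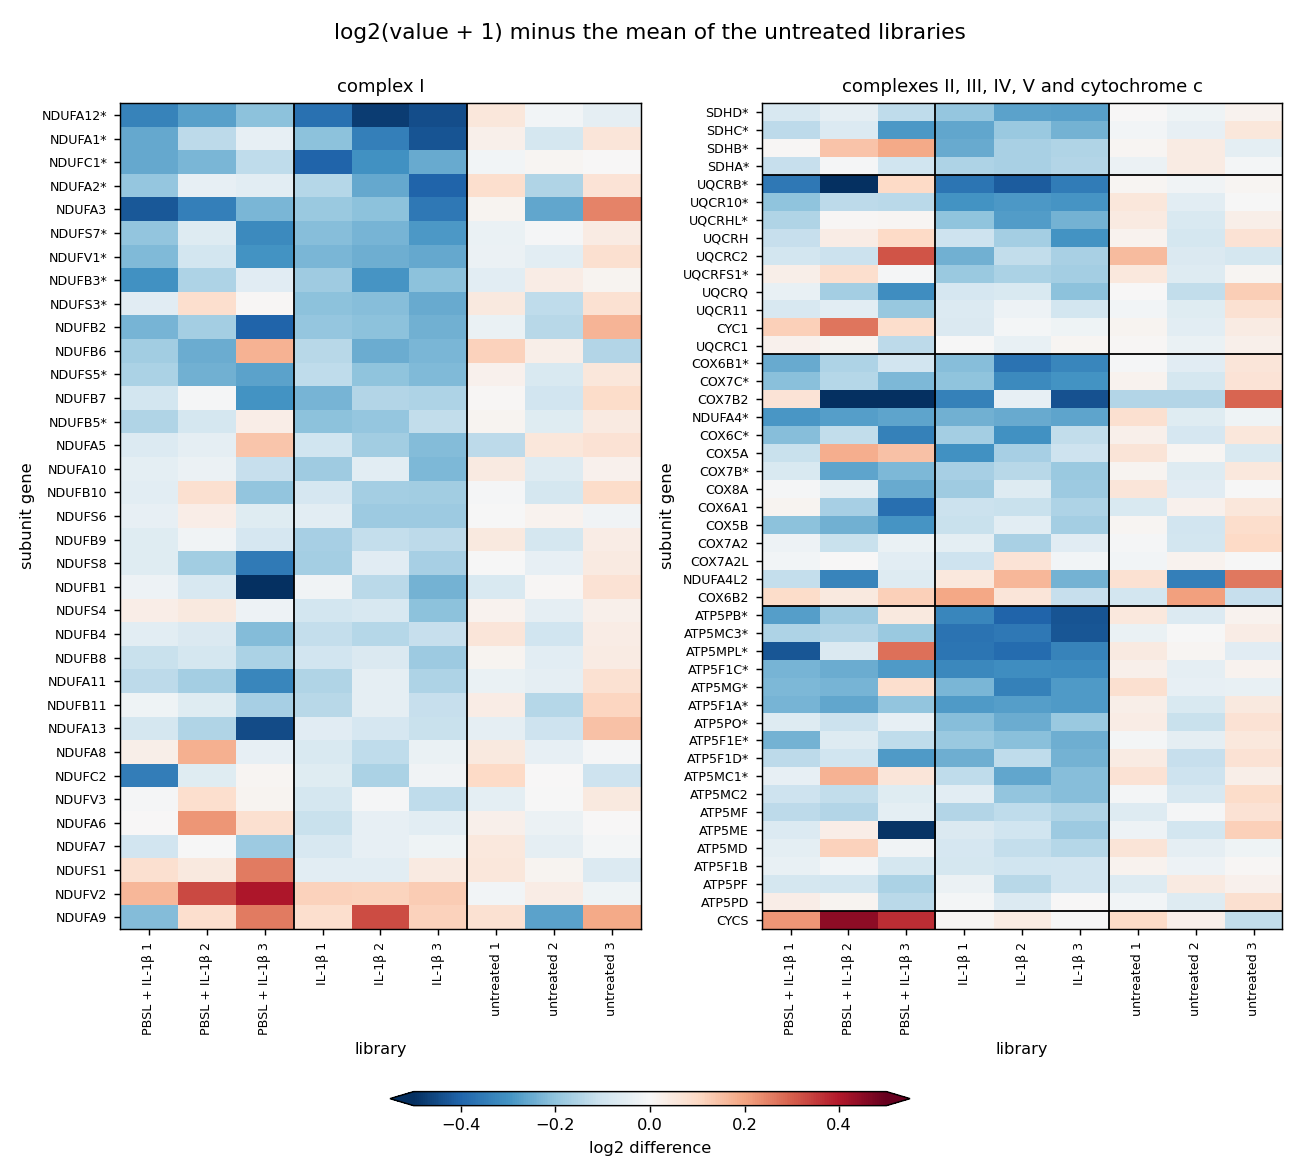
Log2(value + 1) of tested subunits in each library minus the mean of the untreated libraries, with complexes divided by lines and members called lower under IL-1β marked with an asterisk. Blue is lower than untreated, red higher, and the colour scale stops at 0.5 in each direction. The IL-1β libraries are mostly blue, and CYCS, NDUFV2 and CYC1 are among the members that are red in every PBSL + IL-1β library. Not every tested subunit is drawn.

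The heat map shows how evenly each library moved. The SD over the 82 members of their difference from the untreated mean was 0.13, 0.17 and 0.22 in the PBSL + IL-1β libraries, 0.12 to 0.14 in the IL-1β libraries and 0.052 to 0.076 in the untreated libraries. The untreated libraries are part of the mean they were set against, which by itself makes their SD smaller. In treated libraries the SD also holds differences between genes in their change. PBSL + IL-1β 3 was the most uneven. In it ATP5ME, a small membrane subunit picked out after its value was seen, had 464, against 622 and 669 in the rest of that group, and ATP5MPL, chosen in the same way, had 106, against 64.6 and 82.8. Across the 82 members the difference in this library had a Pearson correlation of 0.35 with log10 transcript length and of -0.27 with GC content. In the other treated libraries the correlations were -0.069 to 0.11 with length and 0.084 to 0.25 with GC content. In the untreated libraries they were -0.20 to 0.14 and -0.18 to 0.24. Over 11904 tested genes the correlation with GC content was -0.24 in PBSL + IL-1β 3 and 0.24 in untreated 3. Genes are not independent replicates, so these values only describe these libraries. With the length and GC trend removed, 10 of the 13 calls with PBSL over IL-1β were kept. The part of length and GC content in the PBSL results was otherwise not tested. The members are short, with a median transcript of 1260 nt against 3399.5 nt over all tested genes.

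Near-identical copies limit single genes as well. The GENCODE 29 annotation holds a pseudogene named after 45 of the 85 subunit genes. Values of such genes are uncertain to the extent that the counting split reads between copies.

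The factors that build the complexes were counted next, by lists chosen for this purpose. Their counts stand against 16.0% of all tested genes that fell under IL-1β and 11.5% that rose with PBSL over IL-1β. Complex I assembly had 2 of 16 that fell under IL-1β (12.5%), NUBPL and NDUFAF8, and 4 of 16 rose with PBSL over IL-1β. Those that rose were NDUFAF6, NDUFAF4, FOXRED1 and COA1. FOXRED1 had 17.3, 19.4 and 16.6 in PBSL + IL-1β libraries, against 13.8, 14.3 and 14.0 in IL-1β libraries, a rise of 0.32 over IL-1β (adjusted p = 0.00616). Complex IV assembly held 25 rows for 24 genes. Under IL-1β SCO2 rose (4.0% of the rows, against 16.2% of all tested genes) and COX10 and COX11 fell (8.0%). With PBSL over IL-1β CMC2, COA7, COA6 and COX17, a copper chaperone, rose (16.0%). Complex III assembly had 1 of 6 that fell under IL-1β, UQCC2, and 2 that rose with PBSL, LYRM7 and UQCC3. Of 5 complex V factors ATPAF1, a chaperone for the F1 β subunit, fell under IL-1β by 0.50 (adjusted p = 0.000161), with 13.8, 12.9 and 15.1 in PBSL + IL-1β libraries, 11.0, 12.7 and 12.3 in IL-1β libraries, and 17.5, 17.2 and 17.4 in untreated libraries. Of 4 complex II factors, SDHAF4 fell in PBSL + IL-1β over untreated, the only call in that list.

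Of 13 regulators of mitochondrial biogenesis that met the minimum value for testing, TFB1M was called lower and PPRC1 higher under IL-1β, with PPARGC1A left aside. Of all tested genes 16.0% fell and 16.2% rose. PPARGC1A, the coactivator PGC-1α, was low throughout, with 0.837, 0.895 and 0.938 in PBSL + IL-1β libraries, 0.816, 0.744 and 0.669 in IL-1β libraries, and 1.51, 1.66 and 1.68 in untreated libraries. PPARGC1A reached the minimum value for testing in the untreated libraries alone, which favours a call, so its call is not counted and its values are given with no test. With PBSL over IL-1β 5 of the 13 rose (38.5%, against 11.5% of all tested genes), namely NRF1, TFAM, TFB1M, GABPB1 and YY1. NRF1, whose core is marked in the promoters above, had 7.28, 7.64 and 7.34 in PBSL + IL-1β libraries, 5.34, 5.48 and 5.46 in IL-1β libraries, and 6.44, 5.63 and 5.50 in untreated libraries. It rose by 0.39 over IL-1β (adjusted p = 0.00415) and by 0.30 over untreated (adjusted p = 0.00429). The medians over the 13 members of this list, PPARGC1A among them, were -0.075 under IL-1β and 0.11 with PBSL, against -0.0049 and 0.0079 over all tested genes.

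The motif counts can also be split by the IL-1β result, for members with a promoter in the table. The NRF1 core lay in 3 of 25 promoters of genes that fell and 7 of 43 of those not called, the ETS core in 6 of 25 and 13 of 43, and the YY1 core in 2 of 25 and 6 of 43. These are counts with no test. The promoter of ATP5F1C, which fell, holds an NRF1 core, and that of NDUFA12, which fell most, holds none of the 3.

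The check of the labels is brief. All 6 tested IL-1β response genes (CXCL8, IL6, SOD2, MMP1, MMP3 and MMP13) rose in both groups with IL-1β over untreated, IL6 having reached the minimum value for testing in those groups alone. Of 10 chondrocyte markers 4 were tested, ACAN, SOX9, HAPLN1 and COL11A1, and COL2A1, the defining cartilage collagen, lay between 0 and 0.027. The values summed to between 523758 and 553196 per library, and the number of reads behind them is unknown.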

How the data were processed

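RNA of SW1353 cells was sequenced as mRNA libraries made with a directional kit, per the labels' protocols. The submitters' processing notes name Trim Galore, STAR and HTSeq with no version and the build hg38, while the annotation is not given in the sources used here. The deposited signal values are gene expression values that the authors had normalized, with no unit such as FPKM or TPM named. The smallest values above 0 fell with transcript length, so they are on a per-length scale. They are not counts, the depth is unknown, and how reads matching several copies were treated is not stated.

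The members and gene lists were chosen with earlier results of these data known. Members were matched by symbol, with positions, transcript lengths and pseudogene names from GENCODE 29 and promoters and microRNAs from RefSeq (GRCh38.p14). Testing required values of 1 or more in 3 or more libraries, which 11924 of 19389 rows had. All 9 libraries entered a single limma fit (version 3.58.1, R 4.3.3) of log2(value + 1) with a variance trend, 3 group means and 6 degrees of freedom left. The threshold was a 2-sided Benjamini-Hochberg adjusted p under 0.05 over all tested genes, in each of 3 comparisons. Folds on this scale understate changes of low genes. With 3 libraries a group the smallest exact permutation p is 0.1, so that test was not used. Named members were the largest called change per complex and direction, the SDH genes, CYC1, CYCS, catalytic subunits, paralog sets and the most and least abundant member of each complex. Single values of some genes are not reported here. The fit was tested on simulated data. The 17 alternatives were other pseudocounts, scaling, filter, variance model and sets of libraries, a replicate block, removal of a smooth length and GC trend (mgcv 1.9.3) and leaving out each library. Python 3.11.15 with pandas 2.3.3, numpy 2.4.6 and, for the plots, matplotlib 3.10.9 did the rest.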

Additional observations from a re-analysis of the deposited data

How the results depend on the processing

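Read depth is unknown for these values, so it sets no limit that can be given, and 3 libraries per group limit the precision. The direction of the median member was kept in all 17 alternatives of each comparison. Under IL-1β the median log2 fold change was -0.22 with the length and GC trend removed. Called under IL-1β were then 57 members, against 33. In a fit of those groups alone 52 were called, 51 lower and 1 higher. Leaving out a library gave 18 to 41. For PBSL + IL-1β over IL-1β, 13 members were called. The number was 8 with no filter, 8 with median-ratio scaling and 7 with robust variance estimation and no variance trend. It was 6 in a fit of those groups alone and 19 once the length and GC trend was taken out. Leaving out a library gave 3 to 21 called, 3 to 20 higher and 0 to 1 lower. Over all genes leaving out a library gave 1314 to 3904 called in that comparison, 650 to 2019 higher and 664 to 1885 lower, against 2684, 1370 and 1314. For PBSL + IL-1β over untreated, the median was -0.17 with the length and GC trend removed, with 50 members called, 45 lower and 5 higher. In a fit of those groups alone 14 were called, 12 lower and 2 higher, and with median-ratio scaling 2 were higher. Leaving out a library gave 9 to 28 called, 7 to 23 lower and 2 to 5 higher. Except for PBSL + IL-1β over IL-1β with a library left out, the numbers of all genes called in these alternatives are not given here. With fewer libraries the fit has fewer degrees of freedom, though some such fits called more members. The causes of these changes in number were not tested.

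With the replicate number as a replicate block, 28 members were called under IL-1β, 7 in PBSL + IL-1β over IL-1β, and 19 (2 of them higher) in PBSL + IL-1β over untreated. The deviations of libraries from their group means had correlations across groups of -0.23 to 0.068 for equal numbers and -0.11 to 0.20 for unequal numbers. Deviations from a group's own mean cancel out within that group, which ties these values together. They therefore cannot settle whether the numbers pair libraries.

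No member called in the reported fit changed direction in that comparison. Uncalled members did under single settings, and those among the named members follow. Under IL-1β they were NDUFA4L2 (0.0051 with a pseudocount of 0.1, and -0.18 to 0.13 leaving out a library), NDUFS1 (0.015 with the length and GC trend removed, and -0.053 to 0.0077), COX6B2 (-0.029 to 0.15), COX7A2L (-0.059 to 0.027) and CYCS (-0.044 to 0.066). With PBSL over IL-1β and the length and GC trend removed they were ATP5F1C (-0.0092), COX6A1 (0.011) and COX7A2 (-0.016). Leaving out a library gave -0.15 to 0.047 for COX6A1, -0.041 to 0.11 for COX6B2, -0.0038 to 0.060 for COX7A2, -0.048 to 0.039 for COX7A2L, -0.081 to 0.012 for COX7B, -0.55 to 0.0051 for COX7B2, -0.0088 to 0.11 for COX8A, -0.19 to 0.075 for NDUFB1, -0.016 to 0.088 for NDUFV1, -0.071 to 0.25 for UQCRB and -0.12 to 0.021 for UQCRQ. In PBSL + IL-1β over untreated the length and GC trend removed gave -0.040 for ATP5MC1, -0.0013 for COX5A, -0.064 for NDUFS3 and -0.14 for UQCRH. Median-ratio scaling gave -0.010 for NDUFS3 and -0.014 for UQCRH there. Leaving out a library gave -0.053 to 0.050 for NDUFS3, -0.039 to 0.069 for UQCRH and -0.081 to 0.0087 for UQCRHL.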

Other observations

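Neighbouring mitochondrial genes give a setting for the subunits, as counts with no test of the lists. Of 17 genes of the TCA cycle and pyruvate dehydrogenase, 6 fell under IL-1β (35.3%, against 16.0% of all tested genes), among them SUCLG1, FH and MDH2. SUCLG1, a succinyl-CoA ligase subunit, had 38.8, 37.8 and 40.4 in PBSL + IL-1β libraries, 35.9, 37.2 and 37.7 in IL-1β libraries, and 48.1, 47.3 and 45.9 in untreated libraries (-0.34 under IL-1β, adjusted p = 0.000235). With PBSL over IL-1β 5 rose (29.4%, against 11.5%), namely IDH3A, DLAT, FH, CS and SUCLA2. FH, fumarase, had 64.0, 64.4 and 75.4 in PBSL + IL-1β libraries, 53.6, 55.9 and 53.2 in IL-1β libraries, and 67.8, 60.2 and 62.9 in untreated libraries, so the IL-1β libraries were the lowest. Among genes of other routes of electrons to ubiquinone, ETFA and ETFB fell under IL-1β, while SQOR, which oxidizes sulfide, had 23.6, 25.1 and 22.9 in PBSL + IL-1β libraries, 20.3, 21.7 and 22.6 in IL-1β libraries, and 10.2, 8.95 and 9.84 in untreated libraries (1.08 under IL-1β, adjusted p = 1.75e-07).

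The mitochondrial ribosome makes the subunits that the mitochondrial genome encodes. Of 77 tested genes for its proteins, 24 rose in PBSL + IL-1β over IL-1β (31.2%), against 15.9% of the subunits and 11.5% of all tested genes, and the difference between the lists was not tested. Their median log2 fold change was 0.16 with PBSL over IL-1β and -0.065 under IL-1β. Of 82 tested cytosolic ribosomal protein genes, 12 fell under IL-1β (14.6%, against 16.0% of all tested genes) and 0 rose (against 16.2%). Their estimate was below 0 for 70 of 82. In PBSL + IL-1β over IL-1β 8 rose (9.76%, against 11.5%) and 0 fell (against 11.0%). At an unadjusted limma p under 0.05 the counts were 0 higher and 27 lower under IL-1β, and 18 higher and 0 lower with PBSL over IL-1β. The shares of all tested genes at that threshold are not given here.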
